A study of Homo sapiens with 6 samples.

Results

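The 9 genes described here encode 7SK RNA, the proteins that form its particle, the kinase that the particle holds, and 1 bromodomain protein: RN7SK, MEPCE, LARP7, HEXIM1, HEXIM2, CDK9, CCNT1, CCNT2 and BRD2. They are 9 of the 20045 genes that the array's annotation names, were chosen by gene symbol with earlier results of these data known, and are represented by 15 probes. Probes whose detection p-value was under 0.05 on all 3 NU7441 arrays, or on all 3 vehicle arrays, were kept, which retained 12 of the 15 probes and all 9 genes, alongside 14973 of the 47323 probes on the array. Of the 12 kept probes, 10 were detected on all 6 arrays and 2 (1 of RN7SK and the only probe of HEXIM1) were kept through the NU7441 arrays alone. Of the BET family, the bromodomain and extra-terminal proteins that bind acetylated histones, the set holds BRD2 alone. BRD3 is given below as a neighbour.

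The arrays came from HCT116, an established human colorectal carcinoma cell line. One group was treated with 40 µM NU7441, a compound known to inhibit the kinase DNA-PK, for 48 h (3 arrays), and the other with 0.1% (v/v) DMSO, the vehicle, for 48 h (3 arrays). Cells of both groups were otherwise described alike, and the compound was used at 1 dose and 1 time. Nothing in the labels says whether the replicates were separate cultures. The p-values rest only on how far arrays of a group spread, which could be technical. The limma fit (eBayes) behind them draws each probe's spread toward that of all kept probes. The SEs and intervals given below are from that fit, while the SDs are those of the arrays themselves.

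7SK RNA is a small nuclear RNA made by RNA polymerase III. MEPCE caps its 5′ end, LARP7 binds its 3′ end, and a HEXIM1 or HEXIM2 dimer docked on the RNA holds P-TEFb, the kinase CDK9 with cyclin T1 or T2, in an inactive state. Released P-TEFb phosphorylates RNA polymerase II and the factors that hold it paused near promoters, and HEXIM1 is widely known as a transcript that rises when P-TEFb has been released from the particle.

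The RNA and its capping enzyme were higher after NU7441, BRD2 was higher, and no member probe was past the threshold in the lower direction. RN7SK changed most, by 1.51 ± 0.11 on the log2 scale (SE, n = 3 each) at its brighter probe. MEPCE and BRD2 were higher by 0.36 ± 0.12 and 0.44 ± 0.13. Across the 12 kept probes 4 were higher at an adjusted p under 0.05 (limma, Benjamini-Hochberg over all 14973 kept probes), 0 were lower and 8 did not pass. One of those 4 is the dimmer RN7SK probe, whose place in the table rests on the NU7441 arrays alone. Of the 10 member probes detected on every array, 3 were higher (30%), against 16.7% of all kept probes that were higher and 34.2% that changed in either direction. The groups did not overlap for 5 of these 10 probes (50%), against 47.1% of all kept probes. Both probes kept through the NU7441 arrays alone had groups that did not overlap as well, but the detection rule favours that pattern. The share that changed in either direction and the share without overlap were both close to those of all kept probes, on 10 probes. All kept probes include those kept through 1 group alone, so the 2 sets were not filtered alike. With detection p under 0.01 required on all 6 arrays, 4477 of 11473 probes changed. Of 10 member probes under that filter, which leaves out the dimmer RN7SK probe, 4 were higher and 1 was lower. Since the genes were picked with earlier results in view, neither the counts nor the adjusted p-values are independent evidence about the set.

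On all 6 arrays the libraries were alike in overall brightness: the median probe signal was between 72.8 and 75.3, and between 35.1% and 37.6% of probes were detected. The groups separated along the first principal component of the kept probes (68.3% of the variance). On the second (12.8%), NU7441 replicate 3 stood apart, at 19.17, with the other NU7441 arrays at -16.06 and -5.20 and the vehicle arrays between -1.31 and 4.33. All 8 probes of 5 epithelial markers (EPCAM, KRT8, KRT18, KRT19 and CDH1) were detected on every array, with a summed signal of 4080 to 5625 on NU7441 arrays and 4585 to 5361 on vehicle arrays. Of these 8 probes, that of CDH1 was higher (0.52, limma adjusted p 0.00569), 1 of the KRT18 probes was lower (-0.49, adjusted p 0.0144) and 6 did not pass. Of the 7 markers of other cell types, PTPRC, COL1A2, PECAM1, CD3E and CD14 had no kept probe. COL1A1 and ACTA2 were kept, and ACTA2 was higher after NU7441 by 0.76 (adjusted p 0.000358). Between 1 and 3 of the 12 probes on that list were detected per NU7441 array, against 2 on each vehicle array, and their summed signal was 929 to 966 with NU7441 and 905 to 929 with vehicle. Their part in the results below was not tested. In RNA from whole cultures, fewer cells of a type and less RNA per cell cannot be told apart.

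The promoters of 3 members, all genes of the 7SK particle or P-TEFb, are shown as examples picked by hand, each holding a motif searched for below. They are the 250 bases before an annotated transcript start in RefSeq (GRCh38.p14), read 5′ to 3′ on the gene's strand, with the motif in capitals.
LARP7, chr4:112636893-112637142, plus strand: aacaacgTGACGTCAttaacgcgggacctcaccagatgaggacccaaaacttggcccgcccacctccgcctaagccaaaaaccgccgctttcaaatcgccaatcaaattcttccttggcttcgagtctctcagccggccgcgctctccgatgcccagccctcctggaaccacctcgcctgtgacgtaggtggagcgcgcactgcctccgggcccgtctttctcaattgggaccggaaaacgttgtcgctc
CCNT1, chr12:48716708-48716957, minus strand: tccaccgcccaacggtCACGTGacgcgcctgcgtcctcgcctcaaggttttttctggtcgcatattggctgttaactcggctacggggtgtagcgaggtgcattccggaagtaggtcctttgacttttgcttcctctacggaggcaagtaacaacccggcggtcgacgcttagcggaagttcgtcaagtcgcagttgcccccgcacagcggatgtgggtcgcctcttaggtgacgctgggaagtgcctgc
HEXIM1, chr17:45148225-45148474, plus strand: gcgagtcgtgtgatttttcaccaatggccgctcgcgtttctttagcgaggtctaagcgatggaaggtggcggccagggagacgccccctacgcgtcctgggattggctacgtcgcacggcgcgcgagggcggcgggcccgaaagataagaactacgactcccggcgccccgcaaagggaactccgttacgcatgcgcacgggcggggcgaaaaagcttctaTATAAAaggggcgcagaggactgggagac
In LARP7 the capitals mark TGACGTCA, the cyclic AMP response element (CRE) that CREB and related factors bind, which begins 243 bases before the start. In CCNT1 they mark an E-box, the letters CACGTG, which many basic helix-loop-helix factors bind, 234 bases before the start. In HEXIM1 they mark the TATA box letters TATAAA, 29 bases before the start. Both strands of 16 windows from 8 of the 9 genes were searched for these and for a CCAAT box, and the 4 motifs were chosen with the genes' values known. Of all 35116 RefSeq windows of this length, 1.65% hold the CRE letters, 6.34% the E-box letters, 10.7% the TATA box letters and 32% the CCAAT letters. Among the members the CRE was found in LARP7 alone, in 1 of its windows, and the TATA box in HEXIM1 alone. The E-box was found in 1 of the windows of CCNT1 and in 1 of those of MEPCE, 124 bases before that start. That window of MEPCE is not shown. The CCAAT letters were found in 6 genes, in 1 window of each, and the windows of BRD2 and CDK9 held none of the 4. The percentages above are shares of windows, and several members have more than 1 window. Counts of genes therefore cannot be set against them. Whether the E-box letters bear on the values of CCNT1 or MEPCE was not tested. A match describes the sequence and is not evidence of a site in use.

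RN7SK (chr6:52995620-52995951, GRCh38.p14 as for every gene position below, a gene of 332 bases annotated as an snRNA) was measured by 2 probes. The brighter, ILMN_2074860, had deposited signals of 236, 235 and 288 on the NU7441 arrays, against 135, 134 and 133 on the vehicle arrays. Every NU7441 array lay above every vehicle array, and NU7441 replicate 3 was the highest. After background correction and quantile normalization the values were 7.78, 7.64 and 7.77 on the log2 scale with NU7441 and 6.18, 6.32 and 6.16 with vehicle. The means, 7.73 ± 0.08 and 6.22 ± 0.09 (SD, n = 3 each), differed by 1.51 ± 0.11 (SE; 95% interval 1.27 to 1.75; limma adjusted p 5.68e-07), a fold of 2.84, which was the 32nd highest among the 14973 kept probes. The ratio of the deposited mean signals, before background was removed, was 1.89. The size of the change moved with the background correction, to 1.03 on the log2 scale with none, while its direction and call were the same in all 19 alternative settings.

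The dimmer RN7SK probe, ILMN_1739423, was detected on 3 of 3 NU7441 arrays and on 0 of 3 vehicle arrays. Its signals were 119, 118 and 153 with NU7441, against 75.1, 74.1 and 76.4 with vehicle, where the detection p-values were 0.183, 0.217 and 0.0974. The vehicle signals lay close to the arrays' medians, and the NU7441 signals lay clear of them. Normalized values were 6.22, 6.06 and 6.47 with NU7441 and 4.30, 4.28 and 4.36 with vehicle. Because the probe was not detected with vehicle on any array, the difference is given as a lower bound on the background-corrected scale: against the lowest signal of a detected probe on each vehicle array (mean 4.43), RN7SK was at least 3.53-fold higher with NU7441 at this probe. That bound holds for this background correction alone. The ratio of the deposited mean signals was 1.72, and the log2 difference was 0.82 with no background correction, 0.97 with the normexp offset of 50 and 0.81 in the authors' deposited table. Both probes placed the NU7441 arrays above the vehicle arrays by different amounts, and the levels of the 2 probes cannot be set against each other. RN7SK has many near-identical copies in the genome as pseudogenes, and whether the probes match them was not tested. The RNA also lacks the long poly(A) tail of messenger RNA, so the labelling kit, which primes on poly(A), may pick it up poorly. The share of 7SK RNA that was labelled was not measured.

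**Figure D1:**
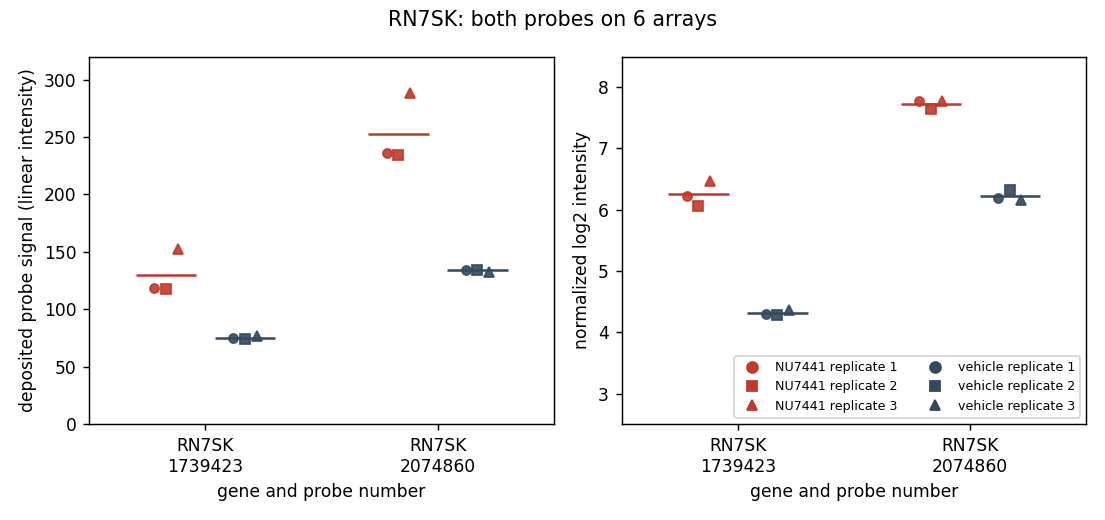
Both RN7SK probes on each array: deposited linear signal (left) and normalized log2 intensity (right), with NU7441 in red left of vehicle in dark blue, 1 symbol per replicate and a line at each group's mean (n = 3 arrays). At ILMN_2074860 the NU7441 signals lie between 235 and 288, above vehicle signals of 133 to 135, and at ILMN_1739423 between 118 and 153, above 74.1 to 76.4.

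The 5 genes whose profiles over the 6 arrays lay closest to that of the brighter RN7SK probe, by Euclidean distance between mean-centred log2 values, were YPEL5 (distance 0.146), AHNAK2 (0.173), FAM89B (0.199), ABCC3 (0.210) and INSIG1 (0.214). YPEL5 is a subunit of the CTLH ubiquitin ligase, ABCC3 an export pump of the multidrug-resistance family and INSIG1 a membrane protein that restrains cholesterol synthesis. Their log2 fold changes lay between 1.39 and 1.61 and their Pearson correlations with RN7SK between 0.993 and 0.999 over 6 arrays. The points share the step between the groups, so these correlations mostly restate a difference of the same size and are given as a description.

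MEPCE, the methyltransferase that caps 7SK RNA (chr7:100428790-100434118), had signals of 121, 136 and 143 with NU7441 and 135, 113 and 119 with vehicle. The deposited signals overlapped, since vehicle replicate 1 lay above NU7441 replicate 1. Normalized values were 6.28, 6.43 and 6.30 with NU7441, against 6.19, 5.86 and 5.88 with vehicle, and did not overlap. The means were 6.34 ± 0.08 and 5.98 ± 0.19 (SD, n = 3 each), a difference of 0.36 ± 0.12 (SE; 95% interval 0.10 to 0.62; fold 1.28; limma adjusted p 0.0333). The call was lost without NU7441 replicate 2 (adjusted p 0.108), vehicle replicate 2 (0.132) or vehicle replicate 3 (0.127).

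LARP7, the La-related protein that protects the 3′ end of 7SK RNA (chr4:112637143-112657586), had 2 kept probes, and neither passed the threshold. ILMN_2392717 gave 7.03, 7.27 and 7.46 with NU7441, against 7.58, 7.34 and 7.57 with vehicle, a difference of -0.24 ± 0.13 (SE; 95% interval -0.52 to 0.04; limma adjusted p 0.169). ILMN_1756104 gave 6.40, 6.52 and 6.61 with NU7441 and 6.73, 6.63 and 6.53 with vehicle, a difference of -0.12 ± 0.11 (95% interval -0.37 to 0.12; limma adjusted p 0.426). The groups overlapped at both probes, with NU7441 replicate 3 the highest of its group at each. Over both probes the intervals reach -0.52 at the low end and 0.12 at the high end.

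HEXIM1 (chr17:45148475-45152099), the inhibitor that binds P-TEFb on 7SK RNA, lay close to the detection limit. Its signals were 77.7, 85.7 and 83.0 with NU7441 and 77.4, 75.9 and 80.1 with vehicle, and the groups overlapped on that scale. It was detected on 3 NU7441 arrays (detection p 0.0117, 0 and 0.0013) and on 1 vehicle array (0.0636, 0.0779 and 0.0195). Normalized values were 4.59, 4.96 and 4.66 with NU7441 and 4.41, 4.36 and 4.56 with vehicle, with means of 4.74 ± 0.19 and 4.44 ± 0.10 (SD, n = 3 each), and NU7441 replicate 2 was the highest. The difference, 0.29 ± 0.12 (SE), is a description, since the probe was kept through the NU7441 arrays only. The signals lie so near the background that the size of a HEXIM1 difference was not resolvable on these arrays.

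HEXIM2, the second inhibitor of the family (chr17:45160174-45170040), had signals of 85.3, 89.0 and 87.6 with NU7441 and 105, 90.1 and 102 with vehicle. Its normalized values were 5.08, 5.12 and 4.87 with NU7441, against 5.51, 5.12 and 5.44 with vehicle. The groups did not overlap, with NU7441 lower, but came close at replicate 2 of each, at 5.116 with NU7441 and 5.125 with vehicle. The difference was -0.34 ± 0.13 (SE; 95% interval -0.61 to -0.06) and missed the threshold (limma adjusted p 0.0555). Without vehicle replicate 2 it was -0.46 with an adjusted p of 0.0267. The profiles closest to that of HEXIM1 were those of DPM3 (distance 0.103), IP6K2 (0.106), C12orf76 (0.113), COG1 (0.118) and PLD2 (0.120), with Pearson correlations between 0.967 and 0.982 over 6 arrays and log2 fold changes between 0.24 and 0.33. For a probe near background such likeness over 6 points is a weak description.

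CDK9, the kinase of P-TEFb (chr9:127786034-127790792), had signals of 189, 196 and 215 with NU7441 and 208, 180.3 and 178 with vehicle, which overlapped. Normalized values were 7.34, 7.26 and 7.21 with NU7441, against 7.11, 6.98 and 6.80 with vehicle, and did not overlap. The means were 7.27 ± 0.06 and 6.96 ± 0.16 (SD, n = 3 each). The difference of 0.31 ± 0.12 (SE; 95% interval 0.05 to 0.56) missed the threshold (limma adjusted p 0.0569). It was past the threshold in 8 of 19 alternative settings, where the adjusted p lay between 0.0276 and 0.0499, and over all 19 it reached up to 0.302, so CDK9 sat at the edge of the call.

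CCNT1, the cyclin that most P-TEFb contains (chr12:48688458-48716707), did not pass the threshold at either kept probe. ILMN_1817255 gave 7.61, 7.60 and 7.37 with NU7441 and 7.57, 7.59 and 7.49 with vehicle, a difference of -0.03 ± 0.11 (SE; 95% interval -0.27 to 0.22; limma adjusted p 0.884). ILMN_3239113 gave 6.05, 6.09 and 6.46 with NU7441 and 6.10, 6.33 and 6.17 with vehicle, with a 95% interval of -0.28 to 0.28 and an adjusted p of 0.999. The normalized values overlapped at both probes, and changes larger than 0.28 on the log2 scale lie outside the intervals of both probes. The deposited signals of ILMN_1817255 did not overlap, at 215.6, 230 and 232.9 with NU7441 and 270.1, 245.6 and 253.8 with vehicle. The third probe fell just outside the detection rule: it was detected on 2 of 3 arrays of each group, with a detection p of 0.0805 on NU7441 replicate 3 and 0.0558 on vehicle replicate 3.

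CCNT2, the other cyclin partner (chr2:134918822-134959342), had 1 kept probe with values of 5.73, 5.70 and 5.61 with NU7441, against 5.51, 5.78 and 5.57 with vehicle. The arrays overlapped, and the difference was 0.07 ± 0.12 (SE; 95% interval -0.18 to 0.31; limma adjusted p 0.689). Its other 2 probes were detected on 0 of 6 arrays and give no level.

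BRD2, a bromodomain protein that binds acetylated histone tails (chr6:32968594-32981505), was the brightest of the member probes. Its signals were 610.4, 692 and 637 with NU7441 and 525, 525 and 620.1 with vehicle. NU7441 replicate 1, the lowest of its group, lay below vehicle replicate 3 on this scale. Normalized values were 9.39, 9.45 and 9.08 with NU7441 and 8.72, 8.88 and 8.99 with vehicle, and did not overlap, with NU7441 replicate 3 and vehicle replicate 3 closest. The means, 9.31 ± 0.20 and 8.86 ± 0.14 (SD, n = 3 each), differed by 0.44 ± 0.13 (SE; 95% interval 0.17 to 0.72; fold 1.36; limma adjusted p 0.0157). The call was lost without NU7441 replicate 2 (adjusted p 0.0721) or vehicle replicate 1 (0.0751). BRD3, the other BET gene with a kept probe, gave 5.72, 5.77 and 6.15 with NU7441 and 5.61, 6.04 and 6.03 with vehicle, and its difference of -0.01 ± 0.15 (95% interval -0.33 to 0.30; limma adjusted p 0.953) did not pass. BRDT, the testis member, had 3 probes and none was kept. The difference between BRD2 and BRD3 in response was not tested.

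**Figure D2:**
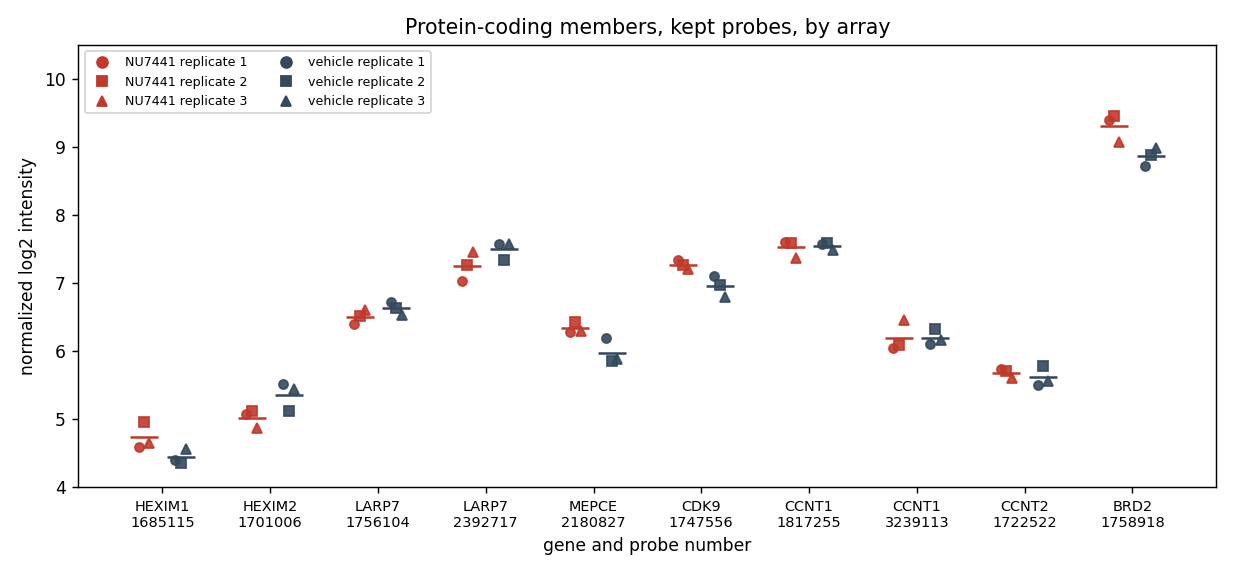
Normalized log2 intensity of the 10 kept probes of the protein-coding members on each array, NU7441 in red left of vehicle in dark blue, 1 symbol per replicate and a line at each group's mean (n = 3 arrays). NU7441 arrays lie above vehicle arrays for MEPCE, CDK9 and BRD2 and, narrowly, below them for HEXIM2, while both LARP7 probes, both CCNT1 probes and CCNT2 overlap. HEXIM1, near background and kept through the NU7441 arrays only, lies above as well.

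**Figure D3:**
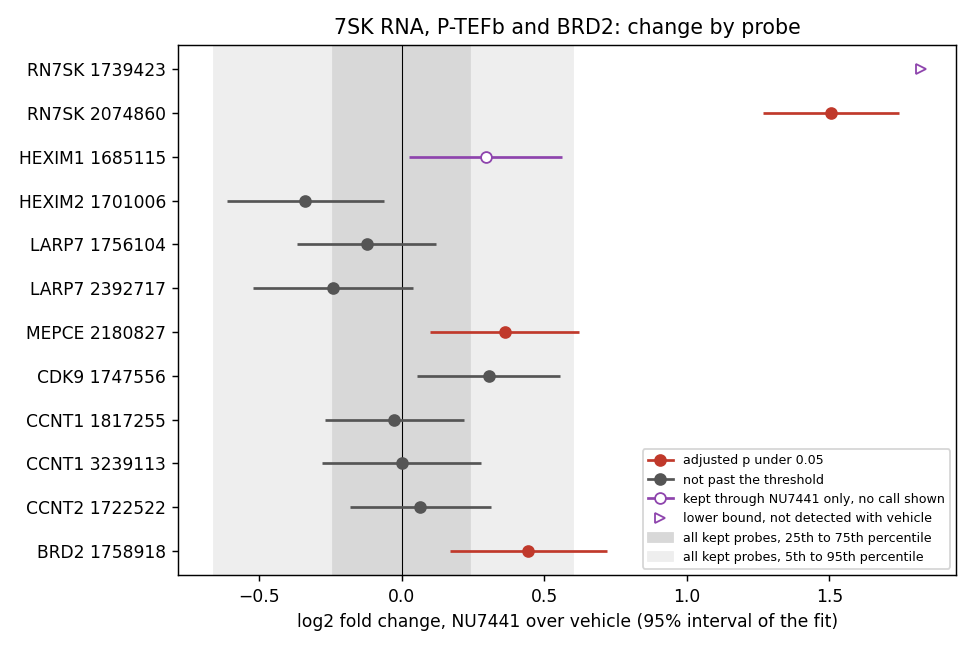
Log2 fold change of the 12 kept member probes, NU7441 over vehicle, with the 95% interval of the limma fit; grey bands span the 25th to 75th (-0.24 to 0.24) and 5th to 95th (-0.66 to 0.60) percentiles of all 14973 kept probes. The triangle is a lower bound on the background-corrected scale, without interval. The brighter RN7SK probe, at 1.51, lies beyond the outer band, as does the lower bound of the dimmer one, at 1.82, and the points of the other members lie inside it.

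The other genes of the pathway were counted from 7 lists with 74 genes, of which 68 had a named probe and 54 a kept one (72 probes). In these lists 11 probes were higher, 16 were lower and 45 did not pass. The median log2 fold change of the 72 probes was -0.11, against 0.01 over all kept probes. The higher share of all kept probes was 16.7% and the lower share 17.5%. The lists therefore hold calls in both directions, and only the 7SK-binding proteins and the other RNA polymerase III transcripts held more than 4 calls.

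The super elongation complex, which carries active P-TEFb to polymerases, had 7 kept probes: 1 was higher and 0 were lower. That probe was ELL3, of the ELL family of elongation factors, higher by 0.51 ± 0.11 (SE, n = 3 each; limma adjusted p 0.00258). Of 14 probes for pausing and elongation factors, the substrates and partners of P-TEFb, 1 was higher and 2 were lower. SUPT4H1, the small subunit of the pausing factor DSIF, was higher by 0.77 ± 0.11 (limma adjusted p 0.000138), with means of 8.04 with NU7441 and 7.27 with vehicle. NELFCD, a subunit of the negative elongation factor NELF, was lower, with a log2 fold change of -0.53 ± 0.12 (limma adjusted p 0.00344). SKIC8, a subunit of the PAF1 complex in human cells, was lower by the same fit (-0.38 ± 0.11; limma adjusted p 0.0181), a call lost without vehicle replicate 2 (0.0750) or vehicle replicate 3 (0.0617).

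Among the other transcriptional kinases and cyclins, 12 probes gave 2 higher and 2 lower calls. CDK19, a kinase of the Mediator complex, was higher by 0.95 ± 0.12 (limma adjusted p 5.44e-05), with means of 6.99 with NU7441 and 6.04 with vehicle. Its cyclin CCNC was lower at 2 of 3 probes, at -0.46 ± 0.13 and -0.37 (limma adjusted p 0.0116 and 0.0199), and the third, at -0.30, did not pass (0.0520). The call at the first of these probes was lost without vehicle replicate 3 (0.0506), and that at the second without any one of NU7441 replicates 1 and 2 and vehicle replicates 1 and 2. CDK7, the kinase of TFIIH, was higher by 0.35 ± 0.11 (limma adjusted p 0.0267). That call was lost without NU7441 replicate 1 (0.0917) or any one of the vehicle replicates (0.0578 to 0.0958).

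The proteins that bind 7SK RNA or release P-TEFb from it had 22 kept probes for 12 genes, of which 3 were higher, 10 were lower and 9 did not pass, with a median log2 fold change of -0.31. By gene, 8 had a lower probe and 1, HNRNPA2B1, had higher ones. HNRNPA1, which binds 7SK RNA that has lost P-TEFb, was lower (-1.02 ± 0.12; limma adjusted p 2.26e-05), with a further probe at -0.52 (0.0316). DDX21, a helicase that takes P-TEFb off the particle, was lower (-0.98 ± 0.13; limma adjusted p 6.52e-05). The splicing factors SRSF1 (-0.60 ± 0.11; 0.000683) and SRSF2 (-0.55 ± 0.11; 0.00185), known to free P-TEFb at promoters, were lower too. HNRNPA2B1 was higher at 3 probes, by 0.33 to 0.45, and its brightest probe, at -0.20, did not pass (limma adjusted p 0.194), so its probes disagree. The counts rest on few arrays: 5 probes were lower without vehicle replicate 2 or without vehicle replicate 3, and 0 were higher without NU7441 replicate 2 or without vehicle replicate 2. DDX21, SRSF1, SRSF2 and the first HNRNPA1 probe stayed past the threshold in every alternative run on them, while the further HNRNPA1 probe lost its call without NU7441 replicate 2 or 3 or vehicle replicate 2 or 3, and each higher HNRNPA2B1 probe without NU7441 replicate 2 and without vehicle replicates 2 and 3.

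**Figure D4:**
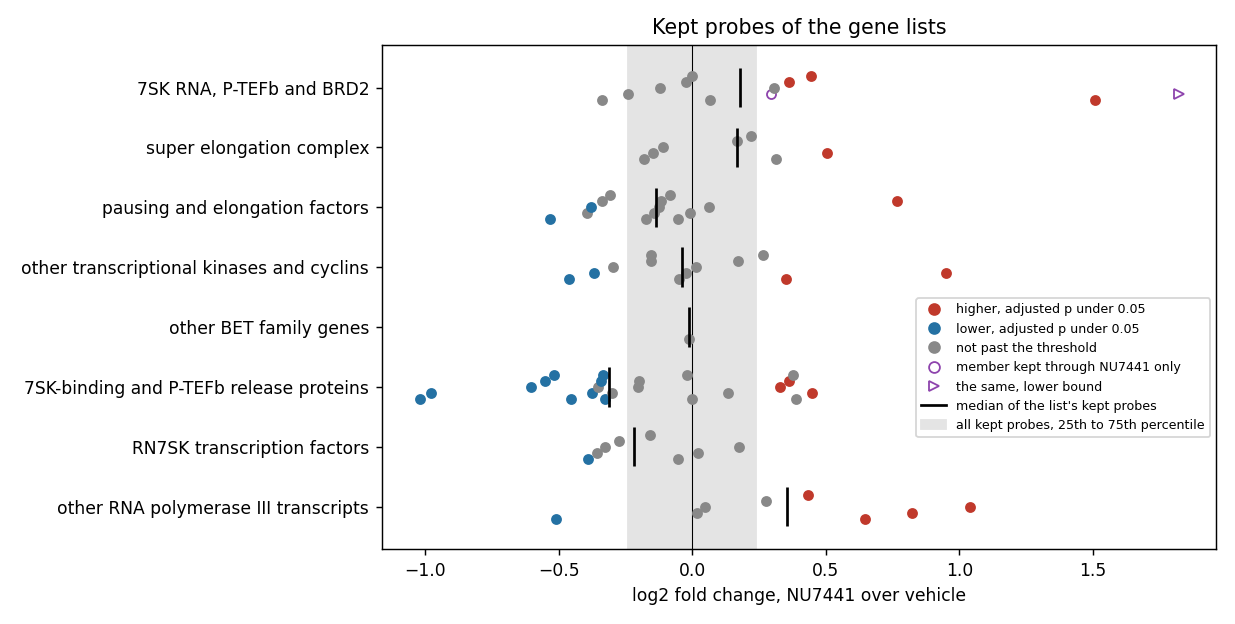
Log2 fold change of each kept probe, NU7441 over vehicle, by gene list; red points were higher and blue points lower at an adjusted p under 0.05, grey points did not pass, open points are member probes kept through NU7441 only (a triangle where the value is a lower bound), black lines are list medians and the grey band spans the 25th to 75th percentile of all kept probes. RN7SK lies at the far right, and the 7SK-binding proteins hold the points nearest to -1.02. The members' median includes both of their probes kept through NU7441 only.

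The transcription factors that make RN7SK, the SNAPc subunits, TBP, the TFIIIB subunits, POU2F1 and ZNF143, were listed together with the La protein SSB. POU2F1 had no named probe, and SNAPC3 and the TFIIIB subunit BDP1 had no kept one. The list had 8 kept probes, of which 0 were higher and 1 was lower. That probe was SSB, which binds the U-rich end of new RNA polymerase III transcripts (-0.39 ± 0.11; limma adjusted p 0.0173). The call was lost without NU7441 replicate 1 (0.0603), vehicle replicate 1 (0.0650) or vehicle replicate 3 (0.0615). A part of these factors in the RN7SK difference was not tested.

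Other RNAs made by RNA polymerase III moved in both directions. Of 15 such genes 13 had a named probe and 8 a kept one, with 4 higher, 1 lower and 3 not past the threshold. RNY4, a Y RNA held by the Ro60 protein, gave 6.81, 6.84 and 7.31 with NU7441, against 6.09, 5.83 and 5.92 with vehicle, a rise of 1.04 ± 0.14 (limma adjusted p 8.92e-05). RNU6-1, the U6 RNA of the spliceosome, lay between 8.94 and 9.11 with NU7441 and between 8.11 and 8.28 with vehicle. Its rise was 0.82 ± 0.11 (limma adjusted p 8.88e-05). RNY1 gave 7.28, 7.52 and 7.41 with NU7441, against 6.79, 6.76 and 6.73 with vehicle, a rise of 0.65 ± 0.11 (limma adjusted p 0.000573). None of these groups overlapped.

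RNY5 was higher by 0.43 ± 0.12 (limma adjusted p 0.0123), a call lost without vehicle replicate 2 (0.0520), and RNY3, at 0.28 ± 0.11, did not pass (0.0738). BCYRN1, a small cytoplasmic RNA of the brain that tumour lines also make, was lower (-0.51 ± 0.12; limma adjusted p 0.00532). RN7SL1, the RNA of the signal recognition particle and by far the brightest of these probes at about 12.2 on the log2 scale in both groups, differed by 0.05 ± 0.11 (95% interval -0.18 to 0.28; limma adjusted p 0.762), although under scaling to each array's 75th percentile it was higher by 0.34 (adjusted p 0.0290). RPPH1, the RNA of ribonuclease P, differed by 0.02 (limma adjusted p 0.918). The rise of RN7SK, 1.51, was larger than that of any other transcript on this list, but whether it exceeds theirs was not tested. The caution on poly(A) priming and near-identical copies applies to all of them.

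**Figure D5:**
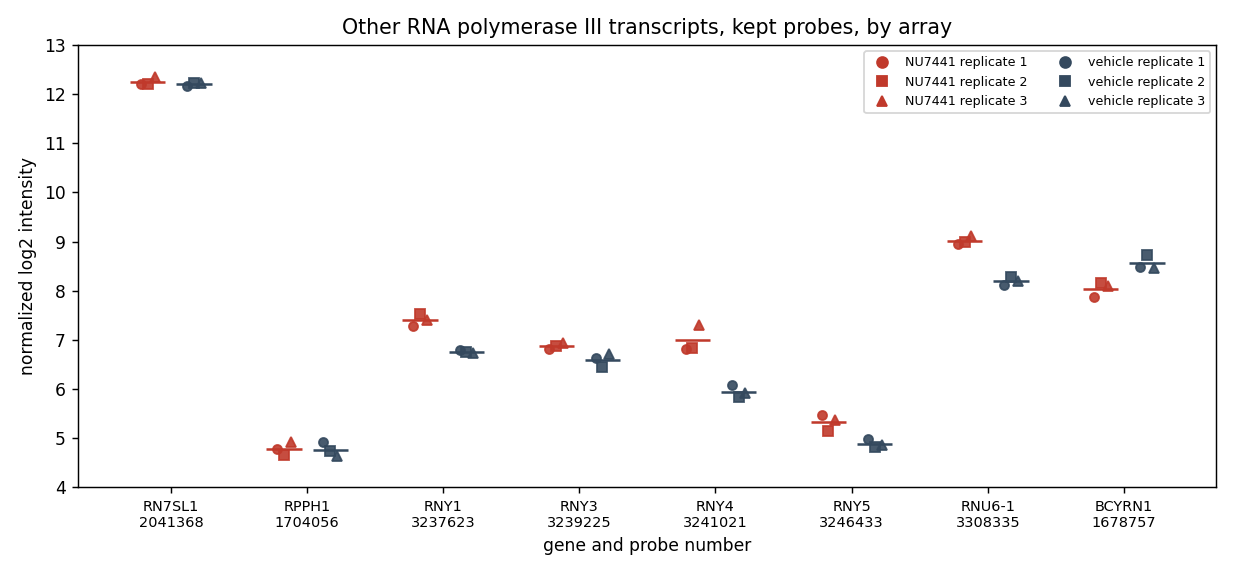
Normalized log2 intensity of the 8 kept probes of other RNA polymerase III transcripts on each array, NU7441 in red left of vehicle in dark blue, 1 symbol per replicate and a line at each group's mean (n = 3 arrays). The NU7441 arrays lie above the vehicle arrays for RNY1, RNY3, RNY4, RNY5 and RNU6-1 and below them for BCYRN1, and the groups overlap for RN7SL1 and RPPH1.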

How the data were processed

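RNA of 6 HCT116 samples was hybridised to Illumina human expression beadchips, 1 colour and 1 array per sample. The authors deposited non-normalized probe intensity with a detection p-value per array, per the file headers, and a log2 table, per the file headers of the series. GenomeStudio, R 3.0.2 and lumi are named in the submitters' processing notes, with neither an order nor settings. In scale, the deposited log2 table holds 47322 probes and lay within 0.0676 of the quantile-normalized log2 of the deposited intensity, so its direction and scale are known and no gene centring was found.

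Intensities were background-corrected and quantile-normalized with neqc (limma 3.58.1, R 4.3.3; negative controls inferred from the detection p-value, offset 16). Each kept probe was fitted with lmFit and eBayes, group as the only term, 3 arrays a group, adjusted by Benjamini-Hochberg over 14973 probes with a threshold of 0.05. The number of arrays limits the precision. The script was tested on simulated data. Probe genes came from the platform annotation: 30112 probes had 1 symbol, 8 several and 17203 none, and 2983 kept probes were left unnamed. Promoters and gene positions came from RefSeq tables. Figures were drawn with matplotlib 3.10.9.

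The members and the gene lists were chosen with earlier results of these data known. Named genes were every member probe, per list up to 3 past-threshold genes with the largest change, the measured BET genes, and the 5 nearest profiles of RN7SK and HEXIM1. SRSF2, HNRNPA2B1, RNY3, RNY5, BCYRN1, RN7SL1 and RPPH1 were named in addition, after their values were seen. The labels do not say whether replicate numbers pair the samples, and the main fit used no pairing. Deviations of same-numbered arrays from their group means correlated at -0.11, 0.05 and -0.07, which cannot settle it with so few arrays.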

Additional observations from a re-analysis of the deposited data

How the results depend on the processing

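The 5120 probes that changed fell to 3020 at an adjusted p under 0.01, and without any 1 array they numbered 3770 to 5101. The 4 higher member probes were 2 with no detection filter, 2 at an adjusted p under 0.01 and 2 after scaling to the 75th percentile over all probes, an alternative added after seeing the data. They were 6 with 75th-percentile scaling and 6 with array weights, where CDK9 (limma adjusted p 0.0499 and 0.0398) and HEXIM1 were added. They were 5 with no background correction, with offset 50, in the authors' deposited table and with an eBayes trend. Without any 1 array they were 2 to 5, with 2 without NU7441 replicate 2 and 5, HEXIM1 among them, without NU7441 replicate 1. HEXIM1 was kept through NU7441 only, so its addition is a description and not a call. Every count of higher member probes given here includes the dimmer RN7SK probe, kept through NU7441 alone in the main fit. One member probe, HEXIM2, was lower after scaling to the 75th percentile over all probes, with detection under 0.01 on all 6 arrays, and with the brightest probe per gene. Without any 1 array 0 to 1 were lower, the 1 without vehicle replicate 2. The 11 higher probes of the pathway lists were 7 after scaling to the 75th percentile over all probes and 6 at an adjusted p under 0.01, 16 with 75th-percentile scaling, and 6 to 14 without any 1 array (6 without vehicle replicate 2). The 16 lower ones were 6 at an adjusted p under 0.01 and 8 to 16 without any 1 array (10 without vehicle replicate 2, 8 without vehicle replicate 3). With the replicate number as a block 4859 probes changed, 4 member probes were higher and 0 lower, and no member call changed. The brighter RN7SK probe was past the threshold in all 19 alternatives, at 1.03 without background correction to 1.56 (1.06 in the authors' deposited table), and MEPCE and BRD2 lost their calls with no detection filter (adjusted p 0.0795 and 0.0611) and after scaling over all probes (0.112 and 0.0877). The CCNT1 differences near 0 changed sign: ILMN_1817255 was 0.0136 with array weights and -0.0689 to 0.0543 without any 1 array, and ILMN_3239113 was 0.00195 without background correction, 0.00179 with offset 50, 0.0793 with 75th-percentile scaling and -0.131 to 0.0754 without any 1 array. BRD3 was 0.0819 with 75th-percentile scaling and -0.157 to 0.0668 without any 1 array, and RN7SL1 was -0.000509 to 0.0716 without any 1 array. Scaling to the 75th percentile moved the median of all probes to 0.11 and the higher share of the calls to 65.9%, against 48.9%, and over all probes to 36.5%. The cause was not tested. No fit with the slide as a block was made, since slides are not named in the files.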
